A study of Mus musculus with 8 samples.

Results

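BAFF and APRIL are secreted ligands of the TNF family that B cells and plasma cells need to stay alive. The genes described here are these ligands and their receptors: Tnfsf13b (ENSMUSG00000031497), which encodes BAFF, Tnfsf13 (ENSMUSG00000089669), which encodes APRIL, Tnfrsf13c (ENSMUSG00000068105, BAFF-R), Tnfrsf13b (ENSMUSG00000010142, TACI) and Tnfrsf17 (ENSMUSG00000022496, BCMA). They were chosen by name, 5 of 32285 genes, and all 5 had UMIs. UMIs, the tags that count single RNA molecules, were measured in 5 single-cell libraries of deep cervical lymph nodes, which drain the brain. The mice were C57BL/6, and 20 days earlier their brains had been injected with cells of the mouse glioma line GL261 or with DPBS, a saline buffer. The depleted isotype library came from GL261 mice given anti-CD20, an antibody that removes B cells, and isotype IgG. The depleted anti-CTLA-4 library came from GL261 mice given anti-CD20 and an antibody to the T cell checkpoint receptor CTLA-4. The anti-CTLA-4 and isotype libraries came from GL261 mice that kept their B cells, and the saline library from DPBS mice, for which the sources used here give no antibody. Live immune cells were sorted, so stromal cells of the node, another known source of BAFF, were not the cells aimed at. Each group had 1 library, and the number of mice behind a library is not given in the sources used here. No difference was therefore tested, and every interval is a 95% interval that covers counting error only.

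BAFF binds BAFF-R, TACI and, more weakly, BCMA, whereas APRIL binds TACI and BCMA. BAFF-R signals through TRAF3 and the kinase NIK to the non-canonical NF-kB pathway and keeps resting B cells alive. TACI drives T cell-independent antibody responses and restrains B cell numbers, and BCMA keeps long-lived plasma cells alive. Myeloid and dendritic cells make both ligands, and in mice T follicular helper cells supply BAFF in germinal centres.

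All 5 genes had promoters in the RefSeq table of build GRCm38.p6, and the 250 bases before a transcript start are shown for the 3 receptors and BAFF. Capitals mark matches on either strand to the NF-kB motif (GGG, any 5 bases, CC) or the interferon motif (GAAA, any 2 bases, GAAA). The first was found in 45.8% (15046 of 32851) and the second in 2.98% (978) of all promoters of this length. A match is a description of letters and not a site.
Tnfrsf13c promoter, minus strand, chr15:82224381-82224630: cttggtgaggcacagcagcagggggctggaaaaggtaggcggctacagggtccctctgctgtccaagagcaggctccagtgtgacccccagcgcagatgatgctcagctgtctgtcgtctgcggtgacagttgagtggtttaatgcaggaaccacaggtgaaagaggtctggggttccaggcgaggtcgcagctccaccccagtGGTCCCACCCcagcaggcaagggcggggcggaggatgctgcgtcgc
Tnfrsf13b promoter, plus strand, chr11:61126505-61126754: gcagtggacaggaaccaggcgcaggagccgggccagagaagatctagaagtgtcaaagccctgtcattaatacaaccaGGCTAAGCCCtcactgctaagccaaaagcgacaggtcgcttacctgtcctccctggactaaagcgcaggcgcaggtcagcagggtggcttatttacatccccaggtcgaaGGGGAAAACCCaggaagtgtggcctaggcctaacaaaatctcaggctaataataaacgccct
Tnfrsf17 promoter, plus strand, chr16:11313559-11313808: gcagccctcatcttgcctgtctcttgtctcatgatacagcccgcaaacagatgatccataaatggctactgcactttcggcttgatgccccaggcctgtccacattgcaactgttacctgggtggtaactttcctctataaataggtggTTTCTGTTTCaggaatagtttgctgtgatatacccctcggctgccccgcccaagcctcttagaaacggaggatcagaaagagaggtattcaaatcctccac
Tnfsf13b promoter at the second of its starts, plus strand, chr8:10006383-10006632: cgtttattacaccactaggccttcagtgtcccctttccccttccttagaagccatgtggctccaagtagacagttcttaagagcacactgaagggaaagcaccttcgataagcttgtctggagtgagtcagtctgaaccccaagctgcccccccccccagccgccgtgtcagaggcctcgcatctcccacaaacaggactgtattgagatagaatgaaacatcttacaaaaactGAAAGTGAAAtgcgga
Tnfrsf13c had 1 NF-kB match, beginning 46 bases before the start. Tnfrsf13b had 3, beginning 172, 62 and 61 bases before it, of which the last pair overlap. Tnfrsf17 had 1 interferon match at 101 bases, and Tnfsf13b had 1 at 16 bases from its second start and none of either motif at its first. The window of Tnfsf13 (chr11:69685555-69685804, minus strand) held 2 overlapping NF-kB matches at 20 and 19 bases. The windows shown for Tnfrsf13b, Tnfrsf17 and Tnfsf13b lie inside the annotated gene spans, which begin at 61126283 on chromosome 11, 11313232 on chromosome 16 and 10006229 on chromosome 8.

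The libraries held 54715065 to 63497466 UMIs, and 8302, 8363, 10598, 8845 and 9027 cells were kept in the depleted isotype, depleted anti-CTLA-4, anti-CTLA-4, isotype and saline libraries. Anti-CD20 left 64 and 95 B lineage cells in the depleted libraries (isotype, then anti-CTLA-4), 0.771% and 1.14% of cells, against 48.8% to 52.1% in the 3 libraries with B cells. Levels are CPM, the UMIs of a gene per 1000000 UMIs of all cells or of a cell class, summed within a library. Ms4a1, the gene of CD20, stood at 8.02 and 10.2 CPM in the depleted libraries and at 246 to 282 in the others. Cells were clustered without the 5 genes, and clusters were named from fixed markers or by their leading genes. A follicular B-like cluster took 430 of its 555 cells and a CD8 T-like cluster 242 of its 243 cells from the isotype library. Any pair of libraries shared 109 to 164 barcodes.

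Tnfrsf13c, the gene of BAFF-R (chr15:82221742-82224380, minus strand), was high in B cell states other than plasma cell-like cells, which had the least of it. B lineage cells held 15002 of its 15265 UMIs. Germinal centres are the site of selection for antibody affinity. Germinal centre B-like cells had 353 CPM (330 to 377) under anti-CTLA-4, 279 (253 to 307) under isotype and 402 (337 to 477) in the saline library. Follicular B-like cells, the resting majority, had 227, 232 and 249 in the same libraries. The germinal centre level was thus 1.55 (1.44 to 1.68), 1.20 (1.08 to 1.33) and 1.62 (1.35 to 1.92) times the follicular level, above it in all 3 libraries. Activated B-like cells, led by Egr1 and Myc, had 210, 236 and 265 CPM in the anti-CTLA-4, isotype and saline libraries, on either side of the follicular values. Plasma cell-like cells had 53.2, 50.03 and 27.4 in these libraries, and 28.2 and 18.8 in the depleted libraries (isotype, then anti-CTLA-4). Over all libraries the plasma cell-like level was 44.3 (36.7 to 53.1) against 236 (231 to 241) in follicular B-like cells, 0.188 (0.155 to 0.226) times as high, or 0.373 times with median-ratio size factors. No plasma cell-like value reached any follicular one. Memory or innate B-like cells, led by Actn1 and Fcrl5, had 130 CPM over all libraries, and B cells led by Rgl1 and Sdc1 had 150.

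Depth per cell differed between these states, and the order of the shares of cells depended on it. Median UMIs per cell were 3278 to 3744 in follicular B-like cells with B cells present and 26801 to 44115 in plasma cell-like cells. A Tnfrsf13c UMI was seen in 86.9% of germinal centre B-like, 59.5% of plasma cell-like and 51.9% of follicular B-like cells. With each cell thinned to 2000 UMIs these shares were 46.2%, 10.8% and 36.4%, in the order of the levels. CD8 T-like cells, which should lack BAFF-R, held a UMI in 0.764% of cells, or 0.214% when thinned. Within the follicular B-like class the largest cluster, led by heat shock genes such as Hspa1a, had 314 CPM and the next largest, led by Pde3b, had 173. Tnfrsf13b followed the same order there, with 153 against 85.9.

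**Figure D1:**
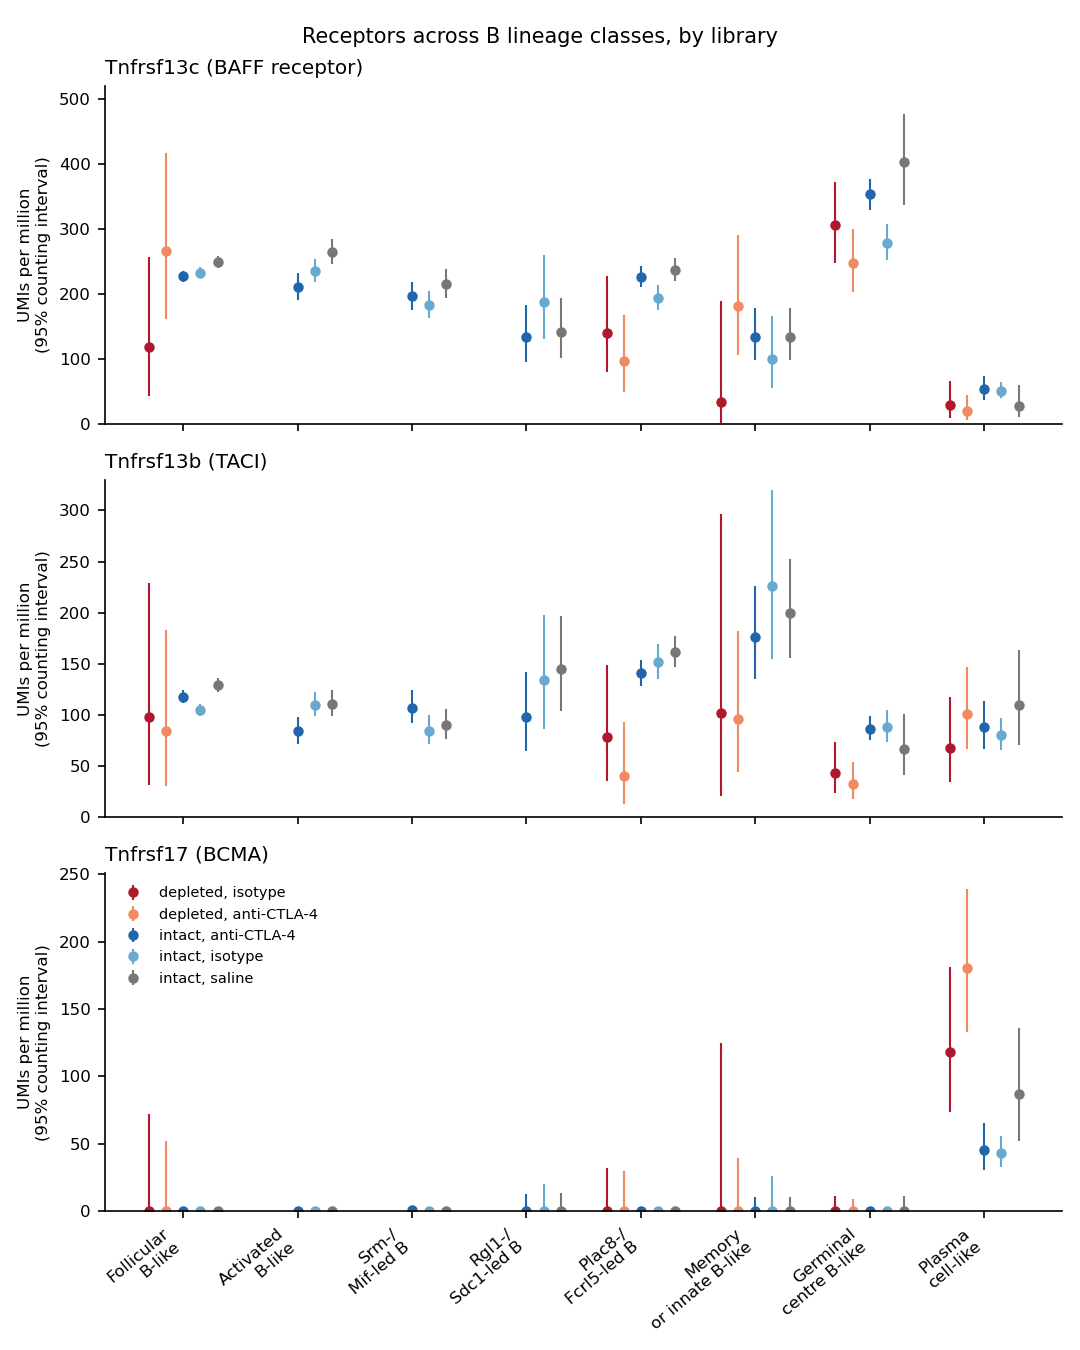
CPM for Tnfrsf13c, Tnfrsf13b and Tnfrsf17 (vertical axes) in 8 B cell classes (horizontal axis), with a point per library of at least 4 cells and bars for the 95% counting interval. Tnfrsf13c is lowest in plasma cell-like cells (44.3 over all libraries), Tnfrsf13b is highest in memory or innate B-like cells (182), and Tnfrsf17 is seen almost only in plasma cell-like cells (66.1).

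Tnfrsf13b, the gene of TACI (chr11:61126283-61153170, plus strand), had another order among B cells. Memory or innate B-like cells had the most, with 176 CPM under anti-CTLA-4, 226 under isotype and 200 in the saline library, against 118, 105 and 129 in follicular B-like cells. Where the class held at least 20 cells this was 1.497 (1.14 to 1.94) times the follicular level under anti-CTLA-4 and 1.55 (1.20 to 1.97) times in the saline library. B cells led by Plac8 and Fcrl5 had 141, 152 and 162, also above the follicular level in all 3 libraries. Germinal centre B-like cells had 86.5, 88.5 and 66.6 CPM, below the follicular level in each. The ratios were 0.734 (0.632 to 0.849) under anti-CTLA-4, 0.844 (0.700 to 1.01) under isotype and 0.517 (0.323 to 0.785) in the saline library. A single isotype cell held 27 of the 132 germinal centre UMIs, and without it the isotype ratio was 0.698. Plasma cell-like cells stood at 86.1 over all libraries, 0.737 (0.642 to 0.842) times the follicular level, a direction that turned to 1.46 with median-ratio size factors.

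The balance of TACI to BAFF-R RNA differed between the B cell states. Follicular B-like cells had 0.495 Tnfrsf13b UMIs for each Tnfrsf13c UMI over all libraries, and germinal centre B-like cells had 0.243. Memory or innate B-like cells had 1.40 and plasma cell-like cells 1.94. A UMI count of a gene depends on how well its RNA is captured, so these values are compared between classes and not as amounts of receptor.

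Tnfrsf17, the gene of BCMA (chr16:11313232-11320074, plus strand), was RNA of plasma cell-like cells. They held 176 of its 178 UMIs, B lineage cells held all of them, and 30744 other cells had 0. In plasma cell-like cells it stood at 118 CPM (73.2 to 181) in the depleted isotype library and 180 (133 to 239) in its anti-CTLA-4 counterpart. It stood at 45.6 (30.7 to 65.0) under anti-CTLA-4, 43.3 (32.9 to 56.0) under isotype and 86.8 (52.3 to 136) in the saline library. These values rest on 4, 9, 24, 41 and 6 cells in that order, with 21, 48, 30, 58 and 19 UMIs, and both depleted values lie above the anti-CTLA-4 and isotype ones. Of all 84 plasma cell-like cells 42 had a UMI, and 1 cell held 18. Germinal centre B-like cells had 0 UMIs in 327 cells, which allows a share of cells with a UMI of up to 0.917% (3 counts of 327) at this depth and sets no limit on cells that express the gene.

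The heavy chain of each B cell, read from the receptor libraries of the anti-CTLA-4, isotype and saline mice, gave a split that clusters did not use. Over all libraries summed, plasma cell-like cells with an IgA or an IgM or IgD chain had more Tnfrsf17 than those with IgG. The level was 116 CPM in 10 IgA cells and 112 in 11 IgM or IgD cells, against 13.1 in 14 IgG1 cells and 21.5 in 28 cells with another IgG. The IgG1 level was 0.117 (0.0402 to 0.282) and the other IgG level 0.192 (0.106 to 0.340) times the IgM or IgD level, while IgA was at 1.04 (0.635 to 1.70). Within the isotype library alone the 4 values were 129 for IgA (5 cells), 130 for IgM or IgD (7), 8.01 for IgG1 (10) and 11.6 for other IgG (14). Under anti-CTLA-4 the IgM or IgD value was 68.4 (4 cells) and the other IgG value 32.7 (14). These rest on few UMIs, as all B lineage cells of that library had 7 with IgM or IgD and 15 with other IgG. Of the 36 Tnfrsf17 UMIs in B lineage cells with IgM or IgD, 29 came from the isotype library. Tnfrsf13b had the same order over all libraries, with 138 for IgA, 119 for IgM or IgD, 63.5 for IgG1 and 68.7 for other IgG. Tnfrsf13c did not, with 9.18 for IgA and 82.5 for IgM or IgD. Plasma cells of 1 library can be of the same clone, so these cells need not be independent. The Tnfrsf17 ratios by heavy chain were not recomputed without the cell that held most of its UMIs.

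Among all B lineage cells the IgG1 value of Tnfrsf13c differed in direction between libraries. Under anti-CTLA-4 65 IgG1 cells, 59 of them germinal centre B-like, had 378 CPM against 229 in 4440 IgM or IgD cells, a ratio of 1.65 (1.48 to 1.84). Under isotype 19 IgG1 cells had 129 against 225 in 3874 IgM or IgD cells, a ratio of 0.572 (0.452 to 0.715). Of these 19 cells 10 were plasma cell-like and 7 germinal centre B-like, so the libraries set cells of different classes side by side. Within germinal centre B-like cells under isotype, 7 IgG1 cells had 286 and 30 IgM or IgD cells 271 CPM. Among the anti-CTLA-4 cells of the germinal centre class, 59 IgG1 cells had 405 and 50 IgM or IgD cells 326 CPM, a ratio of 1.24 (1.06 to 1.45).

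Outside the B lineage the TACI gene was present in T cells and was high in plasmacytoid dendritic-like cells, the interferon-producing class led by Siglech. T lineage cells held 3012 of the 11017 Tnfrsf13b UMIs. Plasmacytoid dendritic-like cells had 174 CPM (129 to 230) in the depleted isotype, 137 (93.5 to 193) in the depleted anti-CTLA-4, 251 (198 to 314) under anti-CTLA-4, 253 (202 to 311) under isotype and 346 (276 to 429) in the saline library. Each was above the follicular B-like value of its own library, and 89.4% of the 132 cells had a UMI. Thinned to 2000 UMIs the share was 34.8%. Over all libraries the level was 233 (209 to 260), 19.7 (17.3 to 22.4) times the 11.9 of CD8 T-like cells. The 6 B lineage markers summed to 53.6 to 174 CPM in these cells, against 8218 in follicular B-like cells, and in 4 of 5 libraries 3 to 5 of the 6 were at 0. Their T cell marker sum was 331 and 76.9 in the depleted isotype and depleted anti-CTLA-4, and 52.8, 206 and 4.12 in the anti-CTLA-4, isotype and saline libraries. Its part in the Tnfrsf13b values was not tested. Tnfrsf13c stood at 10.6 in the same cells.

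Treg-like cells, the Foxp3-positive suppressors, had more Tnfrsf13b than other large T cell classes. The level was 33.8 CPM in the depleted isotype, 32.0 in the depleted anti-CTLA-4, 36.5 under anti-CTLA-4, 28.5 under isotype and 39.995 in the saline library. CD8 T-like cells had 11.3, 12.2, 13.6, 11.7 and 10.7 in the same order. Treg-like cells were at 2.85 (2.54 to 3.19) times the CD8 T-like level over all libraries, and every library had them higher. A UMI was held by 14.99% of Treg-like and 6.96% of CD8 T-like cells, or 6.15% and 2.29% when thinned. The unthinned share was 3.92% in migratory dendritic-like cells. The pooled CD4 T subclusters had 31.9, cycling T cells 22.2 and other CD4 T-like cells 16.0 over all libraries. The first of these and the 33.8 of Treg-like cells over all libraries lay within counting error of each other, and the other two levels were lower. Monocyte or macrophage-like cells had 48.3, from 10 UMIs in 24 cells, and NK-like cells had 6.52.

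Tnfrsf13c RNA was scarce in T cells. It stood at 0.757 and 0.948 CPM in the depleted isotype and depleted anti-CTLA-4, and at 1.496, 1.57 and 1.23 in the anti-CTLA-4, isotype and saline libraries. These values move with the share of B lineage cells, 0.771% and 1.14% in the depleted and 48.8% to 52.1% in the other libraries, and the part of free B cell RNA in them was not tested. The Tnfrsf13b values of T lineage cells were 15.6 and 16.9 in the depleted and 18.2, 14.98 and 14.8 in the other libraries. T lineage cells thus had 14.6 Tnfrsf13b UMIs per Tnfrsf13c UMI, against 0.504 in B lineage cells. The annotation of Usp22, a deubiquitinase gene, overlaps that of Tnfrsf13b by 1390 bases, and the strand used in counting is not given in the sources used here. Usp22 stood at 29.1 in Treg-like, 27.7 in CD8 T-like, 41.8 in plasmacytoid dendritic-like and 30.6 in NK-like cells. It stood at 32.5 in other CD4 T-like cells and 23.8 in the pooled CD4 T subclusters. Its part in the Tnfrsf13b values was not tested.

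**Figure D2:**
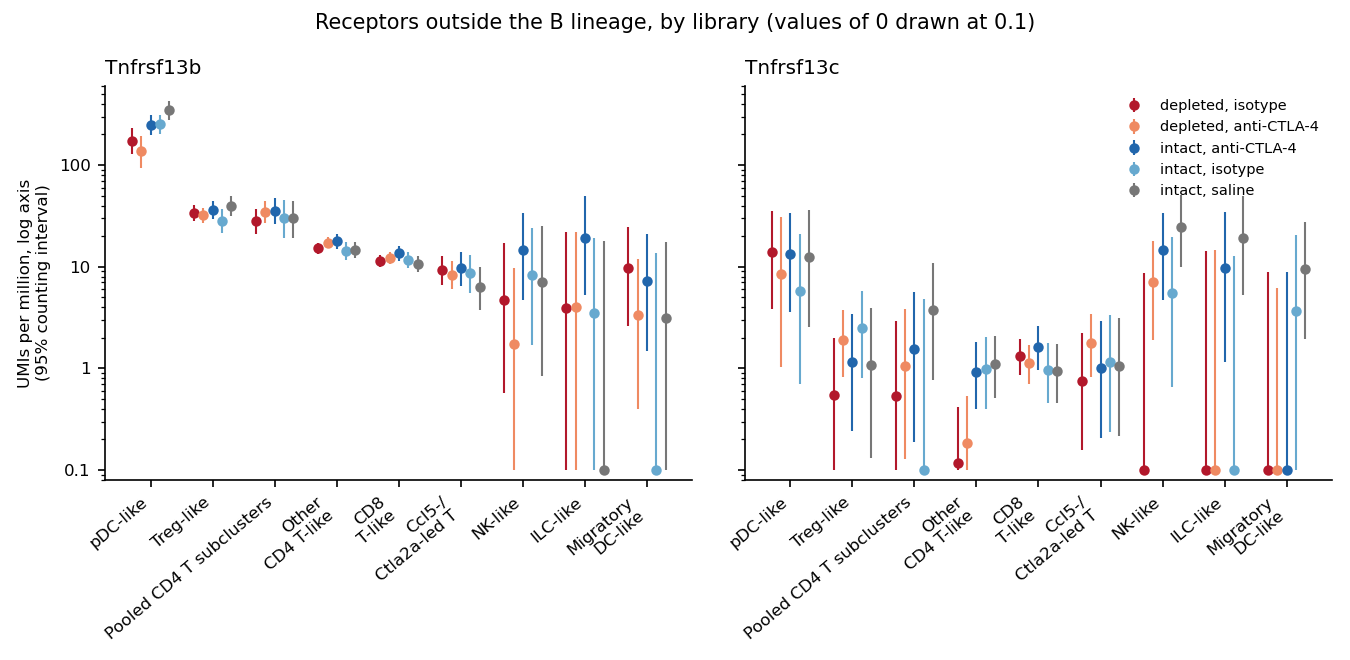
Tnfrsf13b and Tnfrsf13c, CPM on a log axis, in 9 classes outside the B lineage, with a point per library of at least 20 cells and 95% counting intervals, values of 0 drawn at 0.1. Tnfrsf13b runs from 137 to 346 in plasmacytoid dendritic-like cells and from 28.5 to 39.995 in Treg-like cells, while Tnfrsf13c of CD8 T-like cells was 1.20 over all libraries.

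Tnfsf13, the gene of APRIL (chr11:69682577-69685554, minus strand), was sparse, with 92 UMIs in 73 of 45135 cells, and most were in myeloid and dendritic classes. Monocyte or macrophage-like cells held 23 UMIs in 24 cells and migratory dendritic-like cells, which carry antigen into the node, held 38 UMIs in 255 cells. The level was 111 (70.4 to 167) in the first class and 18.8 (13.3 to 25.8) in the second, a ratio of 5.90 (3.35 to 10.2). By library the monocyte or macrophage-like class had 11, 1, 5, 5 and 1 UMIs in the depleted isotype, depleted anti-CTLA-4, anti-CTLA-4, isotype and saline libraries, from 11, 3, 4, 4 and 2 cells. Migratory dendritic-like cells had 26.6 CPM in the depleted isotype, 19.9 in the depleted anti-CTLA-4, 9.65 under anti-CTLA-4, 11.1 under isotype and 25.1 in the saline library, from 11, 12, 4, 3 and 8 UMIs. Intervals of these values overlap one another. Conventional dendritic cells of the cDC1 type had 6.99, myeloid cells led by Ifitm3 and Il1b had 3.82 and NK-like cells 3.01. T lineage cells had 7 UMIs in all, or 0.0376 CPM. The annotations of an antisense gene, Tnfsf13os, and of a read-through transcript that joins Tnfsf12 and Tnfsf13 each cover all 2978 bases of Tnfsf13, so its UMIs may include theirs. Tnfsf12, which encodes the ligand TWEAK, stood at 80.3 in NK-like, 48.3 in monocyte or macrophage-like and 11.4 in migratory dendritic-like cells.

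Tnfsf13b, the gene of BAFF (chr8:10006229-10036000, plus strand), had 130 UMIs in 122 cells, and T lineage cells held 100 of them. T lineage cells were also the majority of all cells, with B lineage cells at 31.9%, so this count alone does not mark them as enriched. A pool of 8 CD4 T subclusters, all parts of 1 cluster and not of 1 kind, held 42 UMIs in 950 cells. Only 1 of them had both Il2 and Penk among its 10 leading genes, and another, of 118 cells, had 2 Tfh markers among them. They had 5.83 CPM in the depleted isotype, 4.73 in the depleted anti-CTLA-4, 5.41 under anti-CTLA-4, 10.5 under isotype and 8.78 in the saline library, from 11, 9, 7, 8 and 7 UMIs. The level over all libraries was 6.32 (4.55 to 8.54), 90.6 (32.9 to 348) times the 0.0697 of other CD4 T-like cells, which had 4 UMIs in 10820 cells. Treg-like cells held 29 UMIs, or 2.02 CPM (1.35 to 2.90), 29.0 (10.2 to 114) times the level of other CD4 T-like cells. By library Treg-like cells had 6, 8, 10, 3 and 2 UMIs in the order above. Migratory dendritic-like cells held 12 UMIs, or 5.94 CPM (3.07 to 10.4), and Tfh-like cells, which help germinal centre B cells, had 3 UMIs in 76 cells, or 5.35. Monocyte or macrophage-like cells had 1 UMI and NK-like cells 0. CD8 T-like cells had 1 UMI in 10868 cells, so the T cell UMIs were not spread evenly over T cells.

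Within this pool the BAFF gene lay mostly in 1 subcluster, led by Penk, Gpm6b, Tbc1d4 and Ifng. It had 26 UMIs in 24 of 182 cells, or 24.7 CPM (16.1 to 36.2), with UMIs from all 5 libraries. The other 7 subclusters had 0 to 6 UMIs each. Of the CD4 T cells other than Treg-like ones, 16 of 203 cells with an Ifng UMI also had a Tnfsf13b UMI (7.88%), against 29 of 11643 without one (0.249%). The levels were 12.1 and 0.522 CPM, and median depths of 5549 and 5170 UMIs were close. Cells with and without an Il21 UMI had 13.0 and 0.641 CPM, at median depths of 6491.5 and 5170 UMIs. The same split gave 6.20 and 0.488 for Pdcd1, 2.12 and 0.697 for Cxcr5, and 1.02 and 0.497 for Cd40lg, the 3 other genes examined. Ifng, the gene of interferon gamma, and Il21, a Tfh cytokine gene, and the other 3 were chosen after values were seen, so these are descriptions.

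**Figure D3:**
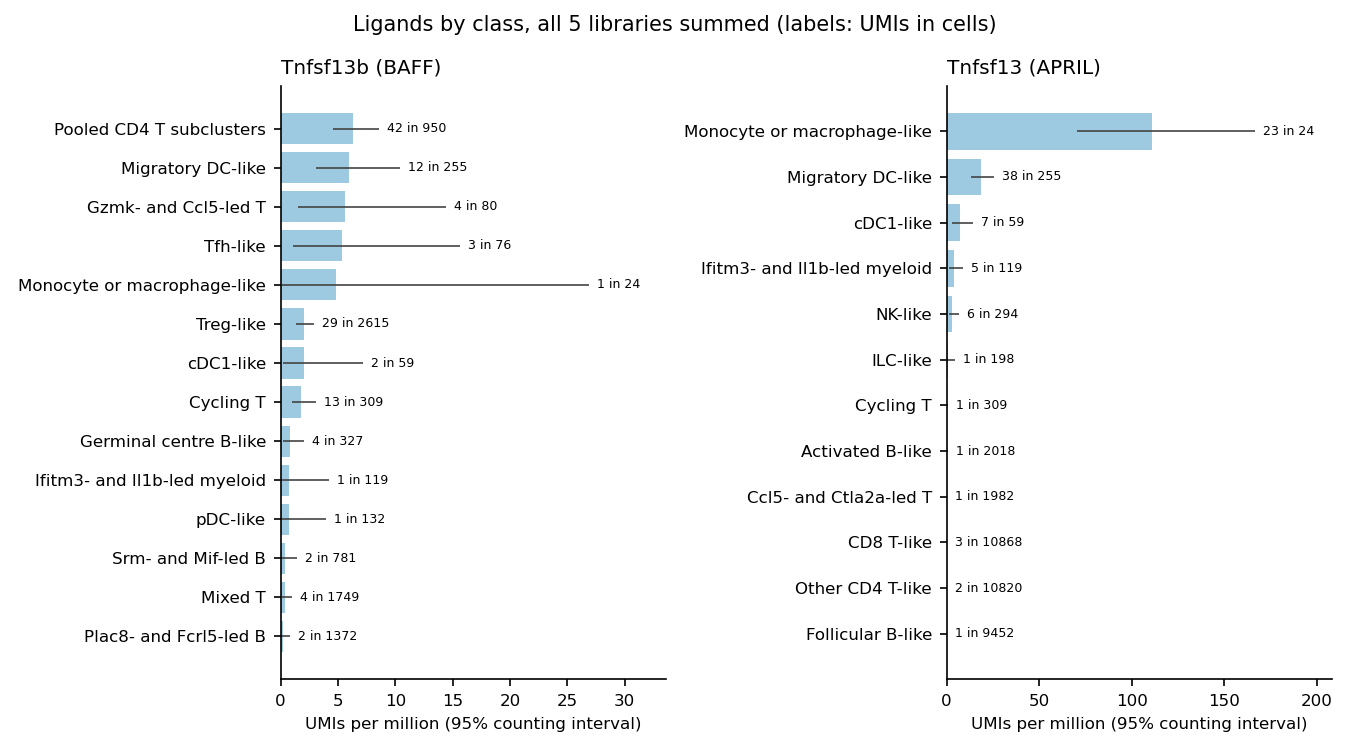
Tnfsf13b and Tnfsf13, CPM over the 5 libraries summed, for the classes with the highest levels, as bars from 0 with 95% counting intervals and labels giving UMIs in cells. Tnfsf13 is highest in monocyte or macrophage-like cells (111) and then migratory dendritic-like cells (18.8), and Tnfsf13b in the pooled CD4 T subclusters (6.32) and migratory dendritic-like cells (5.94).

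Depletion over intact was read in the isotype pair and in the anti-CTLA-4 pair. Over all cells, where fewer cells of a type and less RNA per cell cannot be told apart, the BAFF-R and TACI genes were lower with anti-CD20 in both pairs, and of the ligand intervals only that of Tnfsf13 in the isotype pair leaves out 1. Tnfrsf13c stood at 3.37 CPM in the depleted isotype against 97.4 in the isotype library, 0.0346 (0.0297 to 0.0401) times as high. It stood at 3.99 in the depleted anti-CTLA-4 against 97.6 in the anti-CTLA-4 library, 0.0409 (0.0356 to 0.0467) times. With a mean of per-cell values these ratios were 0.0169 and 0.0257. Tnfrsf13b stood at 17.2 against 57.8 and 18.0 against 59.9, at 0.297 (0.275 to 0.320) and 0.301 (0.280 to 0.323) times. Both genes were lower in both pairs, Tnfrsf13c by more. With at least 50 UMIs in a pair of libraries summed, 4 members could be counted, of which 3 were at least 1.5-fold lower in the isotype pair and 2 in the anti-CTLA-4 pair, where 10.3% and 10.8% of all genes were. Tnfrsf17 went both ways, at 0.321 (0.185 to 0.536) in the isotype pair and 1.48 (0.923 to 2.41) in the anti-CTLA-4 pair. Within the B lineage it was at 9.87 (5.70 to 16.5) and 33.7 (21.0 to 54.7) times, where plasma cell-like cells were 4 of 64 and 9 of 95 depleted cells against 41 of 4607 and 24 of 5171 intact ones.

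Depletion did not go with a detectable difference of the BAFF gene over all cells. Tnfsf13b had 28 and 27 UMIs in the depleted libraries (isotype, then anti-CTLA-4) against 26 and 31 in their intact pairs, at 0.971 (0.549 to 1.72) and 0.833 (0.478 to 1.44) times. Outside the B lineage it was at 0.787 (0.420 to 1.51) and 0.506 (0.286 to 0.889), and in T lineage cells at 0.792 (0.399 to 1.62) and 0.472 (0.255 to 0.866). The intervals of the anti-CTLA-4 pair lie below 1 and those of the isotype pair hold it. Tnfsf13 had 27 and 19 UMIs in the depleted against 11 and 16 in the intact libraries, at 2.21 (1.06 to 4.94) and 1.14 (0.553 to 2.36) times over all cells. Outside the B lineage the Tnfsf13 ratios were 1.24 (0.596 to 2.77) and 0.714 (0.344 to 1.51), and both intervals hold 1. In migratory dendritic-like cells they were 2.39 (0.632 to 13.4) and 2.06 (0.625 to 8.78).

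Tnfrsf13b in plasmacytoid dendritic-like cells was lower with depletion in both pairs. The ratios were 0.691 (0.478 to 0.989) in the isotype pair and 0.545 (0.349 to 0.834) in the anti-CTLA-4 pair, where 5.24% and 5.98% of the genes with at least 50 UMIs in these cells were at least 1.5-fold lower. The isotype pair did not pass that fold and the anti-CTLA-4 pair did. The T cell marker sums given above were highest in the depleted isotype library, and their part was not tested. In T lineage cells Tnfrsf13b was at 1.04 (0.921 to 1.18) and 0.929 (0.833 to 1.04), and in Treg-like cells at 1.19 (0.860 to 1.65) and 0.879 (0.670 to 1.16). All 4 of these intervals hold 1.

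**Figure D4:**
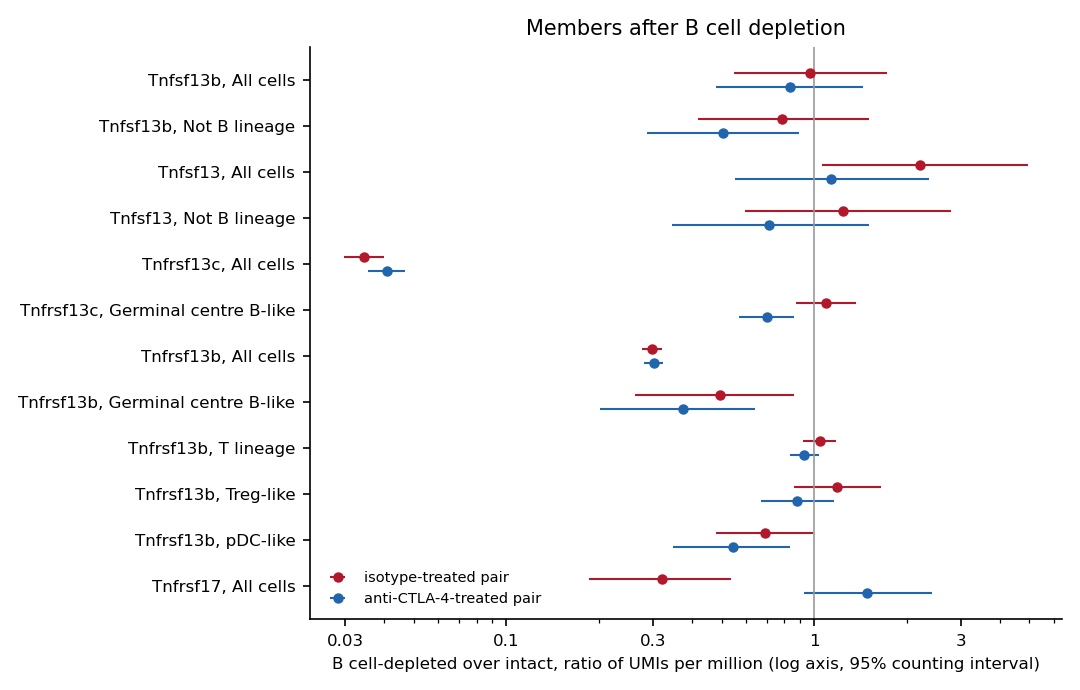
Ratios of the member genes, depleted over intact, on a log axis by cell class, with the isotype pair in red, the anti-CTLA-4 pair in blue and bars for the 95% counting interval. Over all cells Tnfrsf13c lies at 0.0346 and 0.0409 and Tnfrsf13b at 0.297 and 0.301, while Tnfrsf13b of T lineage cells lies at 1.04 and 0.929.

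The germinal centre B-like cells left after anti-CD20, 22 in the depleted isotype library and 39 in its anti-CTLA-4 counterpart, were the largest named B cell class there and still carried BAFF-R RNA. Tnfrsf13c stood at 305 CPM (248 to 372) in the depleted isotype against 279 in the isotype library, a ratio of 1.09 (0.869 to 1.37). It stood at 248 (203 to 300) in the depleted anti-CTLA-4 against 353 in the anti-CTLA-4 library, a ratio of 0.702 (0.569 to 0.860). Tnfrsf13b was lower in both pairs, at 43.6 (23.8 to 73.2) against 88.5 and at 32.4 (17.7 to 54.4) against 86.5. Its ratios were 0.493 (0.262 to 0.857) and 0.375 (0.202 to 0.643), each from 14 UMIs in the depleted library. The isotype value of 88.5 includes the single Tnfrsf13b-rich cell described above, which lowers the first ratio. Of the 2 members with at least 50 UMIs it was the only one at least 1.5-fold lower, where 14.3% and 17.4% of all genes were. Ms4a1 itself stood at 804 against 755 and at 732 against 962 CPM in these cells.

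Among genes downstream of the receptors, more were higher than lower in the remaining germinal centre B-like cells. Of 10 survival and surface genes known to depend on BAFF with at least 50 UMIs, 4 were at least 1.5-fold higher and 1 lower in the isotype pair, with a median ratio of 1.38 against 0.966 over all 5113 genes, of which 10.1% were higher. In the anti-CTLA-4 pair 8 of 10 were higher and 0 lower, with a median of 1.74 against 0.960 over 6626 genes, of which 12.0% were higher. Fcer2a, which encodes the IgE receptor CD23, stood at 246 against 73.7 and at 357 against 112 CPM, ratios of 3.34 (2.47 to 4.50) and 3.18 (2.59 to 3.88). Icosl, the ligand of the T cell receptor ICOS, was at 2.99 (1.81 to 4.88) and 2.32 (1.57 to 3.36). Bcl2l11, which encodes the death factor BIM, was at 0.432 (0.181 to 0.890) in the isotype pair and 1.80 (1.24 to 2.56) in the anti-CTLA-4 pair, so its direction differed. Bcl2l11 counts among the 8 higher genes of the anti-CTLA-4 pair, although a death factor is not a survival gene. Bcl2a1d, a survival factor of the Bcl-2 family with near-identical copies that can share reads, was at 0.715 (0.293 to 1.52) and 2.62 (1.44 to 4.62). Fcer2a and Cr2 are also markers of follicular B cells. The 6 follicular markers summed to 570 and 727 in the depleted isotype and depleted anti-CTLA-4, against 358 and 325 CPM in the isotype and anti-CTLA-4 libraries, and the 9 germinal centre markers to 1775 and 2152 against 1494 and 2546. The part of this mix in the list was not tested.

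Among 14 receptor adaptor and NF-kB genes, 2 of 12 with at least 50 UMIs were at least 1.5-fold higher in the isotype pair and 5 of 14 in the anti-CTLA-4 pair, and 0 were lower in either, where 10.1% and 12.0% of all genes were higher and 14.3% and 17.4% lower. The 2 of 12 is near that share. Their median ratios were 1.19 and 1.27. Traf1 (1.85, 1.23 to 2.73), Nfkb1 (1.53, 1.12 to 2.07) and Rel (1.46, 1.13 to 1.87) led the isotype pair. Nfkb2, the NF-kB subunit processed by the non-canonical pathway, led the anti-CTLA-4 pair at 144 against 54.5 CPM, a ratio of 2.63 (1.92 to 3.59). It was followed there by Birc3 (2.30, 1.78 to 2.94) and Traf3 (1.90, 1.31 to 2.71), which hold the kinase NIK in check. In the isotype pair Nfkb2, Birc3 and Traf3 were at 1.10, 1.27 and 1.29, with intervals that hold 1. Plasma cell programme genes did not share a direction, with 0 higher and 2 lower of 6 in the isotype pair (Derl3 0.363, 0.114 to 0.892, Irf4 0.569, 0.284 to 1.04) and 1 higher of 5 in the anti-CTLA-4 pair (Irf4 1.58, 1.11 to 2.197). Of the genes that process, shed or bind the ligands 0 of 8 passed the fold in the isotype pair, and 3 of 9 were higher and 1 lower in the anti-CTLA-4 pair. Of these Sdc4, a heparan sulphate carrier, stood at 90.4 against 41.4, a ratio of 2.18 (1.47 to 3.19).

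**Figure D5:**
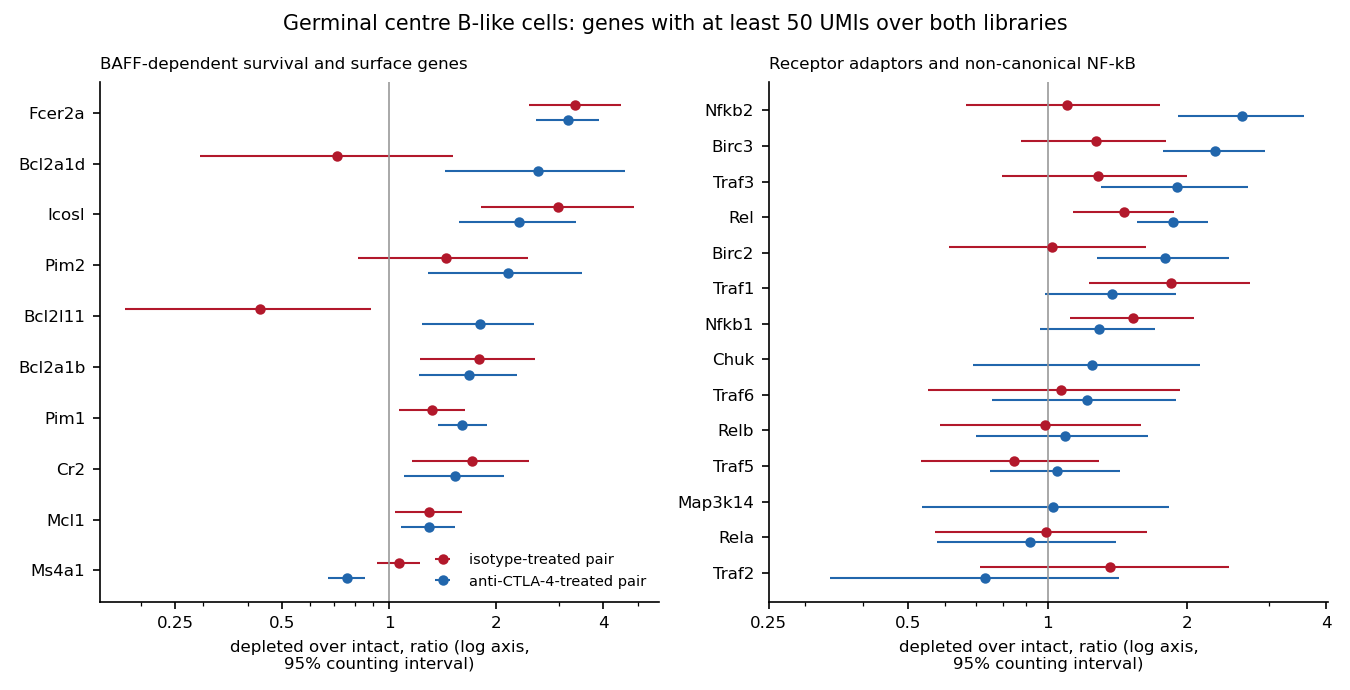
Ratio of each receptor adaptor and survival gene with at least 50 UMIs in germinal centre B-like cells, depleted over intact on a log axis, for the isotype pair and the anti-CTLA-4 pair, with 95% counting intervals. Fcer2a is highest in both (3.34 and 3.18), and Nfkb2 lies at 1.10 in the isotype pair and 2.63 in the anti-CTLA-4 pair.

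Anti-CTLA-4 over isotype was compared in nodes with B cells. Tnfrsf13c was level in follicular B-like cells, at 227 against 232 CPM, a ratio of 0.977 (0.926 to 1.03). It was higher under anti-CTLA-4 in germinal centre B-like cells, at 353 against 279, a ratio of 1.27 (1.12 to 1.43). The 9 germinal centre markers summed to 2546 CPM in these cells under anti-CTLA-4 and to 1494 under isotype. The 6 B lineage markers summed to 5631 and 4656, and the part of this make-up in the ratio was not tested. In the B cells led by Plac8 and Fcrl5 Tnfrsf13c was at 1.17 (1.04 to 1.32) and in activated B-like cells at 0.891 (0.788 to 1.01). Tnfrsf13b was at 1.12 (1.04 to 1.21) in follicular B-like, 0.977 (0.783 to 1.22) in germinal centre B-like and 1.22 (1.06 to 1.39) in T lineage cells. The follicular B-like cluster with 430 isotype cells had 49 under anti-CTLA-4, and its part in the follicular ratios was not tested. The germinal centre ratio of Tnfrsf13b is lowered by the single isotype cell rich in it, described above. Tnfrsf17 over all cells had 31 UMIs under anti-CTLA-4 against 59 under isotype, 0.481 (0.301 to 0.756) times the level, but within plasma cell-like cells it was at 1.05 (0.653 to 1.66). The Tnfsf13b ratio was 1.503 (0.767 to 3.05) in T lineage cells and 2.59 (0.666 to 14.6) in Treg-like cells, from 10 against 3 UMIs, and both intervals hold 1. In follicular B-like cells 0 of 14 adaptor genes and 0 of 12 survival genes passed 1.5-fold, where 3.19% of all genes did. In germinal centre B-like cells, where 7.61% of all genes were at least 1.5-fold higher and 3.86% lower, 0 of 14 adaptor genes passed it, Fcer2a was higher at 1.52 (1.22 to 1.92), and Bcl2a1d (0.482, 0.312 to 0.740) and Pim2 (0.632, 0.437 to 0.913), a survival kinase gene, were lower.

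After depletion, depleted anti-CTLA-4 over depleted isotype gave 0.812 (0.612 to 1.08) for Tnfrsf13c and 0.744 (0.329 to 1.68) for Tnfrsf13b in germinal centre B-like cells. Tnfrsf17 over all cells was at 2.22 (1.31 to 3.91), from 48 against 21 UMIs, with 9 against 4 plasma cell-like cells. Tnfsf13b was at 0.938 (0.532 to 1.65) and Tnfsf13 at 0.684 (0.360 to 1.28) over all cells, and both intervals hold 1.

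Glioma with isotype over saline gave lower receptor RNA in follicular B-like cells. Tnfrsf13c was at 0.933 (0.884 to 0.983) and Tnfrsf13b, at 105 against 129 CPM, at 0.814 (0.753 to 0.878). Both are within the 1.5-fold that 3.94% of genes passed in this class. The make-up of the class differed, with a cluster led by Gm15564 and Lars2 holding 430 isotype and 74 saline cells. Its largest cluster held 1057 and 808 and the next largest 815 and 985. The part of this make-up in the ratios was not tested. In activated B-like cells Tnfrsf13c was at 0.889 (0.801 to 0.986), and in B cells led by Plac8 and Fcrl5 at 0.817 (0.720 to 0.925). The germinal centre B-like ratio was 0.693 (0.569 to 0.849), from 73 against 27 cells, and at 0.856 with no doublets removed. The 9 germinal centre markers summed to 1494 CPM in these cells under isotype and to 2463 in the saline library. The 6 B lineage markers summed to 4656 and 5607, and the part of this make-up in the ratio was not tested. Of the adaptor genes in these cells 2 of 14 were at least 1.5-fold higher (Relb 2.19, Traf6 1.69) and 3 lower (among them Traf2 at 0.628), where 9.56% and 15.7% of all genes were. The median ratio of the adaptor genes was 0.712, against 0.969 over all 5231 genes. Of the survival and surface genes 4 of 10 were higher and 0 lower, but their median ratio was 1.002, near the 0.969 over all genes. Fcer2a was among the higher ones at 1.74 (0.995 to 3.29). Bcl2l11, the gene of the death factor BIM and thus not a survival gene, was another at 1.73 (0.921 to 3.60). Bcl2a1d was also higher, but its ratio of 11.5 (1.98 to 464) rests on 52 against 1 UMIs. Tnfrsf13b of plasmacytoid dendritic-like cells was at 0.729 (0.534 to 0.996). Tnfrsf17 over all cells had 59 UMIs against 19, a ratio of 3.03 (1.78 to 5.39), with 41 against 6 plasma cell-like cells. The Tnfsf13b ratio over all cells was 1.41 (0.744 to 2.73). The isotype library serves in this comparison, in the anti-CTLA-4 comparison and in the depletion one, so their values are not independent.

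The genes whose levels across 24 cell classes of at least 50 cells were most like the members were named as a description, from Pearson's r of log2(CPM + 1) with libraries summed. The classes share libraries and differ in depth. Bcar3 (0.965), the antigen receptor genes Cd79b (0.965) and Cd79a (0.962), and Bfsp2 (0.959) were among those most like Tnfrsf13c. Lynx1 (0.900), Arhgap24 (0.865), Cybb (0.859), Ly6d (0.854) and Cyp4f18 (0.850) were most like Tnfrsf13b, of which Lynx1, Cybb and Ly6d had their highest level in plasmacytoid dendritic-like cells. Pkd2l2 (0.884), Fkbp11 (0.878), Prg2 (0.875), Tmem248 (0.875) and Wipi1 (0.874) were most like Tnfrsf17, all highest in plasma cell-like cells. Arhgef40 (0.946), Cxcl16 (0.919), Nav1 (0.917) and Pygl (0.915) were among those most like Tnfsf13, all highest in migratory dendritic-like cells among these classes, which leave out the 24 monocyte or macrophage-like cells. Tnfsf13b had weaker neighbours on few UMIs, with Dynlrb1 (0.820) and Tbc1d4 (0.798) first, then Ndufv2 (0.791), Glrx (0.791) and Stambp (0.786).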

How the data were processed

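The authors deposited whole-number UMI counts per gene and cell barcode for 5 libraries made with 10x 5′ chemistry, from cellranger 7.0.1 per the file headers, and tables of B cell receptor contigs with their UMI counts for 3 of them. The submitters' processing notes name mm10 and bcl2fastq 2.20.0. Annotation release, strand and intron settings: not given in the sources used here. Barcodes with at least 500 genes and at most 10% mitochondrial UMIs were kept. Scrublet's automatic threshold marked 0% in the depleted libraries, so the highest-scoring barcodes were removed instead, 648 to 1105 a library, at a rate in proportion to its barcodes. Cells were clustered with scanpy 1.11.5 and leidenalg 0.10.2 (2000 variable genes, 30 components, 15 neighbours, resolution 1), without the 5 member genes and the antigen receptor segments. Clusters were named from marker lists, with naming thresholds set after the clusters were seen. UMIs were summed per class and library and given as CPM, with exact 95% Poisson or binomial intervals (scipy 1.17.1), and the arithmetic was checked on simulated data. Ratios between libraries needed 20 cells in both, or 10 cells for heavy chain groups, and a count of 3 was the floor. List genes needed 50 UMIs over both libraries and were counted past 1.5-fold. The named genes were the 5 members, the 3 genes of each list with the largest ratio either way, and the 5 genes most like each member, with at least 200 UMIs. Some genes that this rule names are not reported here. Other genes named were chosen after their values were seen. With 1 library per group no test was made. The members and lists were chosen with earlier results of these data known.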

Additional observations from a re-analysis of the deposited data

Results flagged for a closer look

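Tnfrsf13c in germinal centre B-like cells lay on opposite sides of 1 in the depletion pairs, at 1.09 times the intact level in the isotype pair and 0.702 times in the anti-CTLA-4 pair. Tnfrsf13b in a mixed T cell class did so as well, at 0.790 (0.484 to 1.32) in the isotype pair and 1.66 (1.07 to 2.66) in the anti-CTLA-4 pair. Tnfrsf17 over all cells was at 0.321 in the isotype pair and 1.48 in the anti-CTLA-4 pair. These were picked out because the direction differed between the pairs. Each group had 1 library, and none of these 3 differences was tested.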

How the results depend on the processing

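The 51 ratios were recomputed under 9 alternatives, giving 365 values, of which 351 moved by no more than the counting interval, 13 moved further and 1 turned direction. With median-ratio size factors, Tnfrsf13b in plasma cell-like over follicular B-like cells turned to 1.46, and the plasma cell-like ratio of Tnfrsf13c became 0.373. Under the same setting Tnfrsf13c in germinal centre B-like over follicular B-like cells was 1.42 (anti-CTLA-4), and Tnfrsf13b over CD8 T-like cells was 15.9 in plasmacytoid dendritic-like and 2.36 in Treg-like cells. With a mean of per-cell values, depleted over intact all-cell ratios of the isotype pair, then the anti-CTLA-4 pair, were 0.0169 and 0.0257 for Tnfrsf13c and 0.262 and 0.266 for Tnfrsf13b. Without the cell with most UMIs, Tnfrsf13b in germinal centre B-like over follicular B-like cells (isotype) was 0.698 and the IgG1 ratio of Tnfrsf13c (isotype) 0.389. Leaving out cells with a defining UMI of another lineage gave 0.401 for that IgG1 ratio and 0.273 for Tnfrsf13b over all cells in the isotype pair. With no doublets removed, Tnfrsf13c in germinal centre B-like cells, isotype over saline, was 0.856. The cause was not tested for any of these. In germinal centre B-like cells at a fold of 2, the higher adaptor genes were 0 in the isotype pair and 2 in the anti-CTLA-4 pair, and the higher survival genes 2 and 4, as a stricter fold gives by construction. With median-ratio size factors 1 adaptor gene was higher in the isotype pair, and with no filter on low counts 3 survival genes were lower. At 200 genes per cell no plasma cell-like class was found. Leaving out the T cell cluster held almost wholly by the isotype library, an alternative chosen after seeing the data, moved none of 12 ratios. No paired analysis was possible because each group had 1 library. Both ligands rest on few UMIs, 130 and 92 in all.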
